A study of Homo sapiens with 8 samples.

Results

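The 10 genes described here, *DUSP4*, *DUSP5*, *DUSP6*, *SPRY1*, *SPRY2*, *SPRY4*, *SPRED1*, *SPRED2*, *ETV4* and *ETV5*, were chosen by name as transcripts that rise with ERK signalling and in part restrain it. All 10 were measured in NCI-H716, among 63241 genes, and 5 of them (*DUSP4*, *SPRY1*, *SPRY4*, *SPRED2* and *ETV5*) in HCT116, where the table used here covers chromosomes 1 to 8 and the start of chromosome 9 and holds 28043 genes. *DUSP5*, *DUSP6*, *SPRY2*, *SPRED1* and *ETV4* lie on other chromosomes and were not analysed here in HCT116. All members that were measured passed the filter on low counts and were tested.

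The study docked small molecules to the FGF receptors and took ZINC000101867325, called Z325, forward as an inhibitor. It reported binding of Z325 to the FGFR1 kinase domain and less phosphorylated FGFR in treated cells. It also reported less phosphorylated AKT and ERK in HCT116 and less phosphorylated ERK in NCI-H716. From its RNA-seq it reported MAPK and PI3K-Akt pathways among the genes that fell. Phosphorylation is a measure of protein, and only RNA is described here. RNA was sequenced from cells labelled Control and from cells labelled Test, which are the Z325-treated cells of the study. There were 2 colorectal cancer lines with 2 libraries per group, 8 libraries in all. The labels do not say whether the controls were given the solvent of Z325. HCT116 is a colon carcinoma line, and NCI-H716 is a colorectal carcinoma line grown from ascites with an amplified *FGFR2*. The sample labels give neither the dose nor the time of the treatment, and each reaction held about 100 cells. The replicates are separate samples by their labels, and the study calls them biological duplicates. The labels do not say whether they came from separate cultures, so the p-values measure the spread between these samples.

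Library totals ran from 10210243 to 19738848 counts in NCI-H716 and from 3434620 to 13396225 counts on the listed genes in HCT116, where replicate 2 of the Z325-treated cells was the shallow library. Summed epithelial markers stood at 1441 to 1677 CPM (counts scaled to a library of fixed size) in HCT116 and 644 to 791 CPM in NCI-H716. CPM were scaled within each line, in HCT116 to the listed genes alone, so these values cannot be compared between the lines. Summed leukocyte markers reached at most 3.30 CPM in any library. The 3 intestinal markers listed in HCT116 summed to at most 0.859 CPM, so these defining markers were near absent there. In NCI-H716 the 5 intestinal markers summed to 182 to 185 CPM in control and 148 to 174 CPM in treated cells, and the 5 enteroendocrine markers to 580 to 666 and 726 to 916 CPM. Most of the enteroendocrine sum was *CHGB*, whose control libraries held 458 and 525 CPM and whose treated libraries held 585 and 765 CPM. In the treated libraries *SCG2* also lay above both controls, *SYP* lay below both, and *CHGA* overlapped. *NEUROD1* was near absent, so the sum does not stand for the whole set. The epithelial cadherin *CDH1* had at most 0.530 CPM in NCI-H716, where *EPCAM* stood at 38.6 to 50.2 CPM. In RNA from whole cultures, fewer cells of a type and less RNA per cell cannot be told apart.

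ERK is the last kinase of the cascade that runs from receptor tyrosine kinases through RAS, RAF and MEK. Active ERK induces its own brakes. The dual-specificity phosphatases (DUSP) take the phosphates off MAP kinases, with DUSP6 in the cytoplasm and DUSP4 and DUSP5 in the nucleus. Sprouty proteins (SPRY) and the related Spred proteins act higher up, between the receptor and RAF, and Spred proteins bring the RAS inactivator neurofibromin to the membrane. ETV4 and ETV5 are ETS transcription factors of the PEA3 group that carry FGF and ERK signals into gene expression. Many of these transcripts turn over quickly, and their levels are widely used as a readout of ERK pathway output in FGF receptor and MEK inhibitor studies.

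The Sprouty members had estimates below 0 after treatment in NCI-H716, as did 7160 of all 14142 genes tested. In HCT116, where *SPRY2* was not analysed, the estimate for *SPRY1* was below 0. That of *SPRY4* in HCT116 was near 0 and turned sign with the processing. No Sprouty member passed the edgeR test in either line. Sequence upstream of *SPRY2* and *SPRY1* is shown here because these are the Sprouty members with the lowest estimates in NCI-H716 and HCT116 in the edgeR fits, and because one of them holds the ETS core motif. The 250 bases before the annotated start (RefSeq, GRCh38.p14) are given 5′ to 3′ on the gene's strand, in lower case, with the ETS core motif CCGGAA in capitals wherever it occurs on either strand.
SPRY2, minus strand, chr13:80341127-80341376: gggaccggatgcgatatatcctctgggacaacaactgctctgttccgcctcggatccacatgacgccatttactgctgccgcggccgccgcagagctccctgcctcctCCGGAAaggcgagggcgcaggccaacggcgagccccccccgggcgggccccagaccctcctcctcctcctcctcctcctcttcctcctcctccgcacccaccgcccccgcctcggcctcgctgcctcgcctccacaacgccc
SPRY1, plus strand, chr4:123396545-123396794: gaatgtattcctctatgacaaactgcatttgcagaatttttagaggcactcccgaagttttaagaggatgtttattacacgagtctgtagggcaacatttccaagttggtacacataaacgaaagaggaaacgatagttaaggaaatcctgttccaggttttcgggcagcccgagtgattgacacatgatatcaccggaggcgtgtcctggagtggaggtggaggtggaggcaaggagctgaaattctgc
The *SPRY2* window held 1 copy of CCGGAA and was 70.4% G and C, while the *SPRY1* window held none and was 45.6% G and C. Windows at the other starts of *SPRY2* held none and were 62.4% and 41.2% G and C, so this contrast depends on the start chosen. RefSeq promoter entries matched 6 of the 10 members, *DUSP6*, *SPRY1*, *SPRY2*, *SPRY4*, *SPRED1* and *SPRED2*, with 10 windows between them because some genes have several starts. CCGGAA lay in 2 of these 10 windows, the second being another start of *SPRY1* with 202 of its 250 bases in annotated exons, against 14.5% of the 35116 promoters searched. The shorter ETS motif GGAA, which lies inside CCGGAA, was in 10 of 10 windows and in 92.7% of all promoters, and the AP-1 motif TGACTCA was in 0 of 10 and in 4.2%. Both windows printed above are clear of annotated exons, as are 6 of the 10. These counts describe letters in a window and say nothing of binding.

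Control cells set the scale for the changes. Levels between genes were compared as FPKM, which divides by gene length. In NCI-H716 control cells *SPRY1* was the highest member on this scale, at 62.7 and 61.6 FPKM in the 2 libraries, followed by *ETV5* at 51.7 and 55.7 FPKM. *DUSP6* (25.5 and 32.4 FPKM) and *ETV4* (25.4 and 29.4 FPKM) came next and overlapped. *SPRY2*, *SPRED1* and *SPRED2* formed a group with means of 12.9, 11.4 and 11.2 FPKM whose libraries overlapped. *DUSP4* (4.81 and 4.65 FPKM), *SPRY4* (4.50 and 4.22 FPKM) and *DUSP5* (3.65 and 4.46 FPKM) were lowest, and the last 2 overlapped. The order depends on the lengths RSEM used, which for *SPRY1* were 900 and 922 bases. In CPM, without division by length, *SPRY1* (42.6 and 40.4) stood below *SPRED1* (67.8 and 92.1) and *DUSP6* (64.6 and 85.4). It also stood below *ETV5* (62.2 and 64.2) and *ETV4* (48.6 and 55.0). After Z325 the 2 libraries of *ETV5* and of *SPRY1* overlapped at the top (54.5 ± 10.2 and 50.9 ± 4.18 FPKM, SD, n = 2), and *DUSP5* stood above *DUSP4* and *SPRY4*, at 6.67 ± 0.325, 5.14 ± 0.226 and 3.36 ± 0.424 FPKM.

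In HCT116 control cells the order was *ETV5* (12.6 and 11.2 FPKM), *DUSP4* (6.73 and 5.91), *SPRED2* (5.41 and 4.71), *SPRY4* (2.37 and 2.55) and *SPRY1* (2.10 and 1.74). No neighbours in this order overlapped, and the order was the same after treatment. The lengths behind these values differ between the lines, 3963 bases for *SPRY1* in HCT116 against 900 and 922 in the NCI-H716 controls, so the place of a gene in the order cannot be compared between them.

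**Figure D1:**
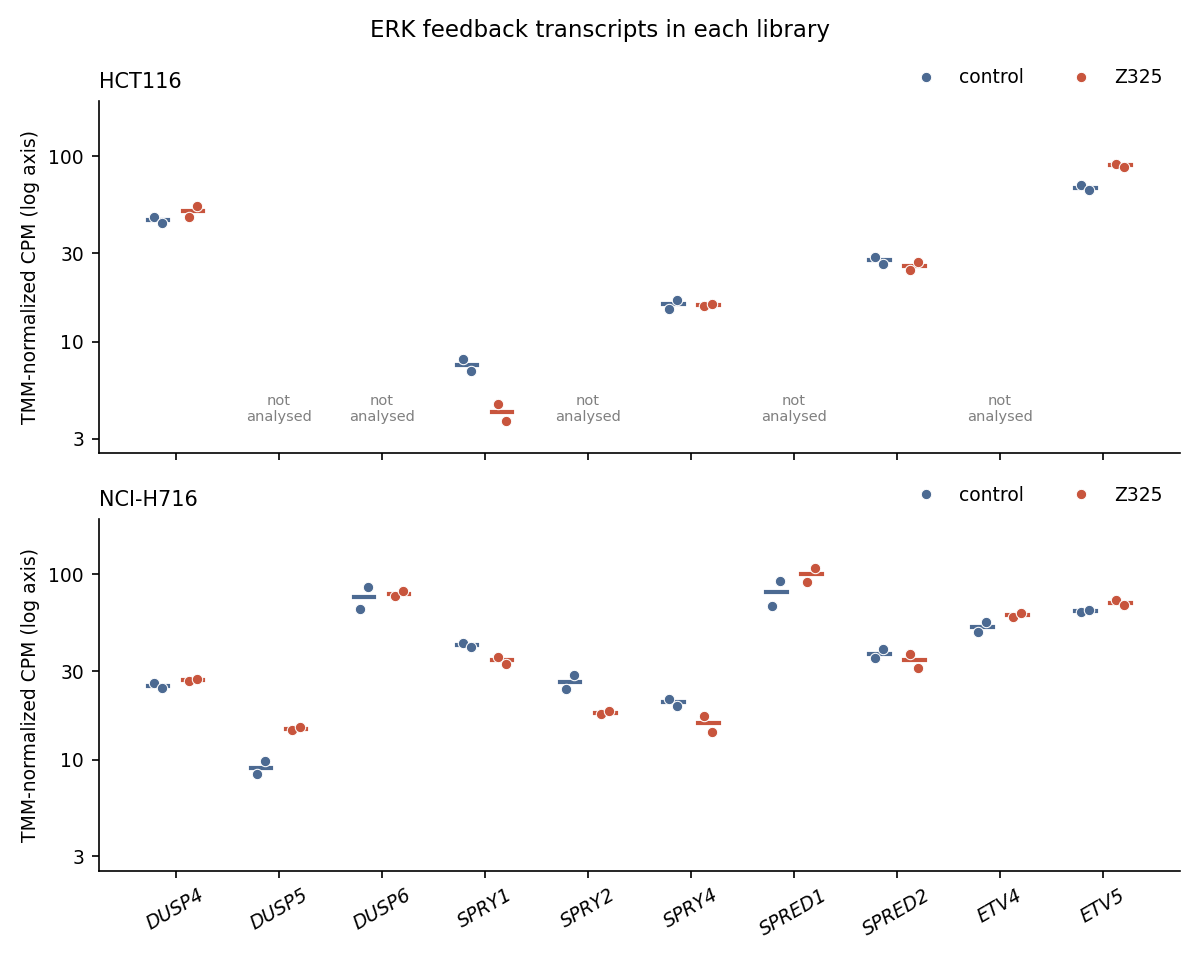
Level of each ERK feedback transcript in each library, as TMM-normalized CPM on a log axis, for control (blue) and Z325-treated (red) libraries of HCT116 (top) and NCI-H716 (bottom), with bars at the mean of 2 libraries. In NCI-H716 the treated libraries of *DUSP4*, *DUSP5*, *ETV4* and *ETV5* lie above both controls, as for 24.3% of all genes. Those of *SPRY1*, *SPRY2* and *SPRY4* lie below both controls, as for 25.1% of all genes. CPM are scaled within each line.

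The question for these genes is whether their transcripts fell when FGF receptors were the intended target. No member passed the edgeR test in either line. In NCI-H716, edgeR at an adjusted p under 0.05 called 0 of 10 members, where it called 0.969% of the 14142 genes tested (0.707% higher and 0.262% lower), and 2 members had an unadjusted p under 0.05, *DUSP5* higher (7.92% of all genes) and *SPRY2* lower (8.9%), where 16.8% of all genes did in either direction. DESeq2 also called 0 of 10, with 2 at an unadjusted p under 0.05. In HCT116, edgeR called 0 of 5, where it called 7.32% of the 6491 genes tested (3.51% higher and 3.81% lower), and 0 had an unadjusted p under 0.05, where 23.9% of all genes did (11% higher and 12.9% lower). DESeq2 called 0 of 5 there, with 1 at an unadjusted p under 0.05. The median log2 fold change of the members was 0.09 in NCI-H716 (6 higher, 4 lower) and -0.01 in HCT116 (2 higher, 3 lower), beside -0.01 and -0.03 over all genes tested. With so few libraries the 95% intervals were wide, and their lower ends reached below -0.3 for *DUSP4*, *DUSP6* and *SPRED2* in NCI-H716, so falls of that size lay within the error of the test.

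Both treated libraries lay above both controls for 4 of 10 members in NCI-H716, *DUSP4*, *DUSP5*, *ETV4* and *ETV5* (24.3% of all genes did), and below for 3 of 10, *SPRY1*, *SPRY2* and *SPRY4* (25.1% of all genes did). In HCT116 both treated libraries lay above for *DUSP4* and *ETV5* (24.8% of all genes did) and below for *SPRY1* (29% of all genes did). By TMM-normalized CPM, *DUSP4* and *ETV5* were thus above, and *SPRY1* below, in both lines. The share of all genes placed alike in both lines was not counted, so the agreement is a description. For *DUSP4* in HCT116 the lowest treated and the highest control library stood at 47.39 and 47.23 CPM. On the FPKM scale *DUSP4* overlapped in HCT116 (6.73 and 5.91 in control, 6.22 and 7.53 in treated cells), as did *ETV5* in NCI-H716, while *SPRY1* stayed below both controls in each line.

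**Figure D2:**
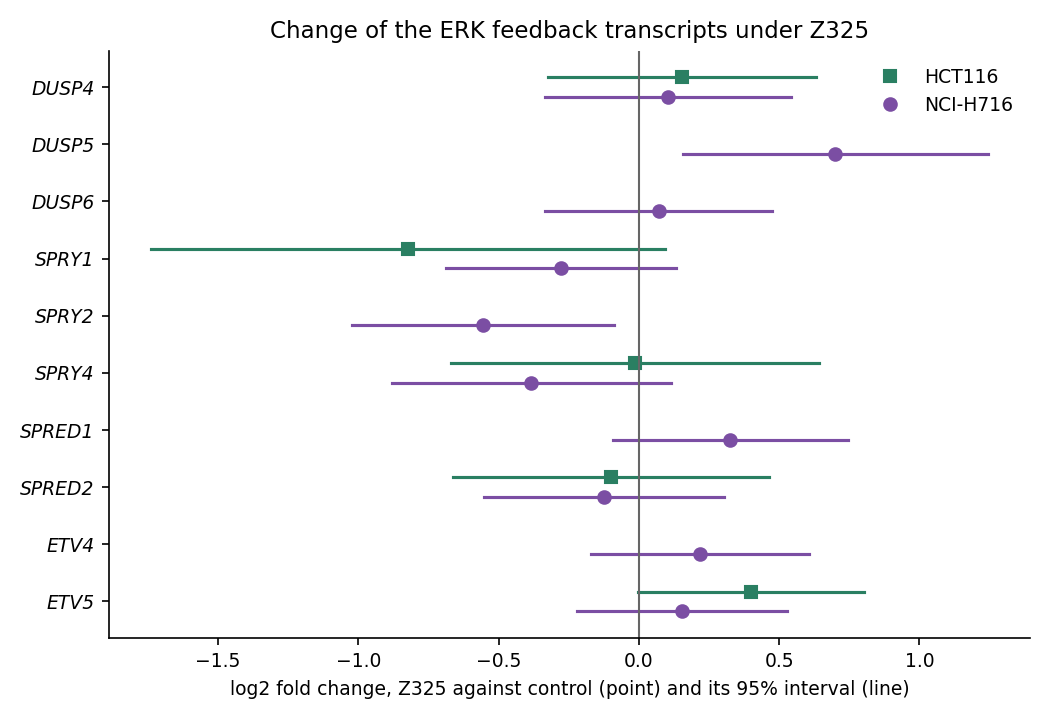
Log2 fold change of each ERK feedback transcript, Z325 against control, with its 95% interval from the edgeR fit, for HCT116 (squares) and NCI-H716 (circles). The intervals of *DUSP5* (above 0) and *SPRY2* (below 0) in NCI-H716 leave out 0 before adjustment, and all the others hold 0.

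Among the phosphatases, *DUSP5* (chromosome 10, 110497907 to 110511533), a nuclear phosphatase specific to ERK, had the largest estimate of the 10 members in NCI-H716. It stood at 8.33 and 9.79 CPM in the control libraries and 14.4 and 15.0 CPM in the treated libraries, so the groups did not overlap. The log2 fold change was 0.70 ± 0.25 (SE, 95% interval 0.16 to 1.24) with an edgeR adjusted p of 0.200. *DUSP6* (chromosome 12, 89347235 to 89352501), the cytoplasmic ERK phosphatase often read as a marker of FGF signalling, stood at 64.6 and 85.4 CPM in control and 76.6 and 80.9 CPM in treated cells. Both treated values fell between the controls, and the log2 fold change was 0.07 ± 0.19 (95% interval -0.33 to 0.48, edgeR adjusted p = 0.888). The sign of this estimate was not stable. On the FPKM scale, which divides by gene length, the difference was -0.15. RSEM gave *DUSP6* lengths of 2723 and 2922 bases in control and 3196 and 3447 bases in treated libraries. With each library left out in turn the edgeR estimate, which uses no length, ran from -0.11 to 0.30. The cause of the change in sign was not tested. Of the exon bases of *DUSP6*, 1105 (28.6%) are shared with a noncoding RNA on the opposite strand, which reads without strand cannot separate, so its level is uncertain.

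*DUSP4* (chromosome 8, 29333064 to 29350684), a nuclear phosphatase of ERK and other MAP kinases, was measured in both lines. In NCI-H716 it stood at 25.9 and 24.2 CPM in control and 26.6 and 27.3 CPM in treated cells, a log2 fold change of 0.10 ± 0.20. In HCT116 it stood at 47.2 and 43.5 CPM and at 47.4 and 53.9 CPM, a log2 fold change of 0.15 ± 0.21. The CPM of the lines are on different scales here, so these levels cannot be compared between them. The treated values began just above the highest control in each line, and the edgeR adjusted p was 0.838 in NCI-H716 and 0.725 in HCT116.

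The Sprouty transcripts were lower in the treated cells of NCI-H716 by estimate, without passing the test. *SPRY2* (chromosome 13, 80335976 to 80341126) stood at 24.1 and 28.6 CPM in control and at 17.6 and 18.2 CPM in treated cells. Its log2 fold change was -0.55 ± 0.22 (95% interval -1.02 to -0.09) with an edgeR adjusted p of 0.230. *SPRY4* (chromosome 5, 142310427 to 142326455) stood at 21.4 and 19.4 CPM in control and 17.3 and 14.1 CPM in treated cells, a log2 fold change of -0.38 ± 0.23. *SPRY1* (chromosome 4, 123396795 to 123403760) stood at 42.6 and 40.4 CPM in control and 35.8 and 32.7 CPM in treated cells, a log2 fold change of -0.28 ± 0.19. All 3 Sprouty members had treated libraries below both controls, and the edgeR adjusted p was 0.425 for *SPRY4* and 0.486 for *SPRY1*. *SPRY3*, which is no member and was too low to be tested, had both treated libraries above both controls, with 4 and 4 counts in control and 9 and 28 counts in treated cells (0.303, 0.388, 0.687 and 1.41 CPM).

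In HCT116, *SPRY1* was again lower, at 8.03 and 6.98 CPM in control and 4.61 and 3.72 CPM in treated cells. The log2 fold change was -0.82 ± 0.41 (95% interval -1.74 to 0.09, edgeR adjusted p = 0.256). It rested on 111 and 91 counts in control and on 59 and 13 counts in treated libraries, the 13 from the shallow library. After thinning all libraries to the shallowest the log2 fold change was -0.38 (edgeR adjusted p = 0.687). *SPRY4* in HCT116 stood at 15.0 and 16.9 CPM in control and at 15.6 and 16.0 CPM in treated cells. Its treated values lay inside the control range, and the log2 fold change was -0.01 ± 0.29 (95% interval -0.67 to 0.64).

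The Spred transcripts overlapped between groups wherever they were measured. *SPRED1* (chromosome 15, 38252836 to 38357249) stood at 67.8 and 92.1 CPM in NCI-H716 control and at 91.4 and 109 CPM in treated cells, a log2 fold change of 0.33 ± 0.19 (95% interval -0.09 to 0.75, edgeR adjusted p = 0.421). Control replicate 1 alone was low for *SPRED1*, and without it the log2 fold change was 0.13. *SPRED2* (chromosome 2, 65310851 to 65432637) stood at 35.2 and 39.5 CPM in control and 37.3 and 31.3 CPM in treated NCI-H716 cells, a log2 fold change of -0.12 ± 0.20. In HCT116 it stood at 28.7 and 26.2 CPM in control and 24.5 and 26.9 CPM in treated cells, a log2 fold change of -0.10 ± 0.25. The estimates for *SPRED2* were close to 0 in both lines, and the 95% intervals ran from -0.55 to 0.30 in NCI-H716 and from -0.66 to 0.46 in HCT116.

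*ETV4* and *ETV5* had estimates above 0. *ETV5* (chromosome 3, 186046314 to 186110318) stood at 70.1 and 65.5 CPM in HCT116 control and at 91.3 and 87.7 CPM in treated cells. The groups did not overlap, and the log2 fold change was 0.40 ± 0.18 (95% interval -0.002 to 0.80) with an edgeR adjusted p of 0.211. In NCI-H716 *ETV5* stood at 62.2 and 64.2 CPM in control and 72.4 and 68.4 CPM in treated cells, a log2 fold change of 0.15 ± 0.17 (edgeR adjusted p = 0.700). On the FPKM scale its groups overlapped in NCI-H716, at 51.7 and 55.7 in control and 61.7 and 47.3 in treated cells, and the difference was 0.0093. The RSEM length of *ETV5* was 1416 to 1423 bases in the other libraries and 1737 bases in treated replicate 2. *ETV4* (chromosome 17, 43527844 to 43579620), measured in NCI-H716 alone, stood at 48.6 and 55.0 CPM in control and 58.7 and 61.7 CPM in treated cells, a log2 fold change of 0.22 ± 0.18 (edgeR adjusted p = 0.575). In CPM both treated libraries lay above both controls in each of these comparisons, and none passed the test. Small stretches of exon are shared with other genes, 164 bases (2.84%) of *ETV5* with *DGKG* on the same strand and 68 bases (1.93%) of *ETV4* with *DHX8* on the opposite one.

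For the 5 members measured in both lines, the treatment by line interaction was fitted over all 8 libraries and 7642 genes. edgeR called 0 of the 5, where it called 0.275% of all genes, and 0 had an unadjusted p under 0.05, where 14.3% of all genes did. DESeq2 called 0 of 5, with 0 at an unadjusted p under 0.05. The largest difference was for *SPRY1*, 0.51 ± 0.35 (log2 fold change in NCI-H716 minus HCT116, 95% interval -0.24 to 1.26, edgeR adjusted p = 0.526). The other 4 differences ran from -0.39 for *SPRY4* to -0.03 for *SPRED2*.

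Control levels were set side by side for the same 5 members. Over the genes present in both tables, *SPRY1* stood at 7.61 ± 1.003 CPM in HCT116 control and 96.1 ± 3.69 CPM in NCI-H716 control (SD, n = 2), a ratio of 12.6. The ratios were 3.11 for *SPRED2* (27.9 ± 2.70 and 86.5 ± 6.78 CPM), 2.93 for *SPRY4* (16.1 ± 0.827 and 47.2 ± 3.32 CPM), 2.13 for *ETV5* (68.7 ± 5.56 and 146 ± 2.87 CPM) and 1.26 for *DUSP4* (46.0 ± 4.20 and 58.1 ± 2.84 CPM). In CPM the control libraries of the lines did not overlap for any of the 5. As TPM, which divides by the length each tool used, the order turned for *DUSP4*, at 19.6 and 17.2 TPM in HCT116 and 9.36 and 8.55 TPM in NCI-H716. For *SPRY4* the lines came close, at 6.88 and 7.41 and at 8.75 and 7.76 TPM. The lines were counted by different tools, so these levels are given without a test.

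**Figure D3:**
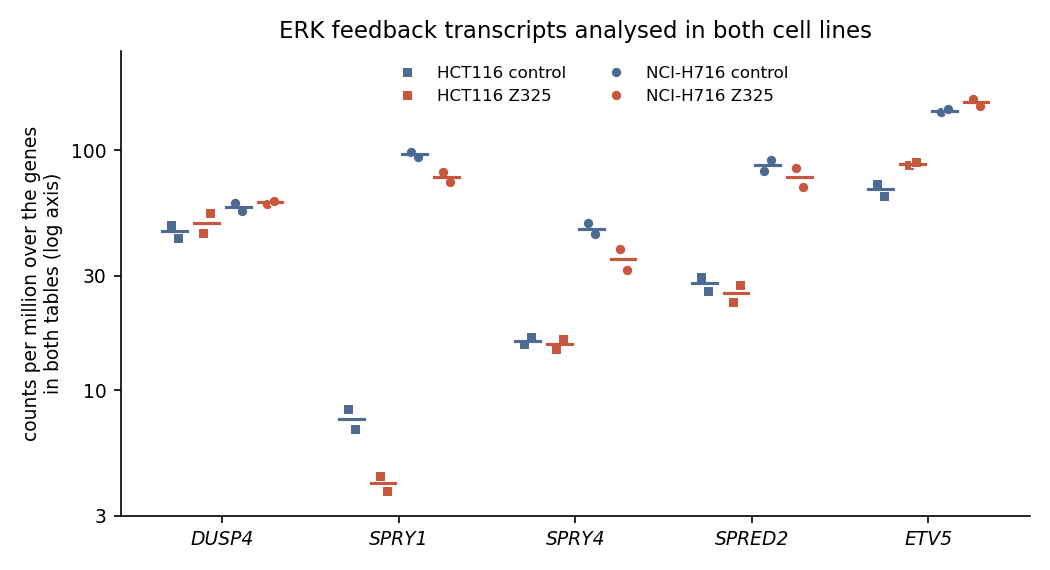
Level of the 5 members measured in both lines, as CPM over the genes present in both tables on a log axis, for control (blue) and Z325 (red) libraries of HCT116 (squares) and NCI-H716 (circles), with bars at the mean of 2 libraries. The gap between the lines is widest for *SPRY1*, at 7.61 and 96.1 CPM in control, and narrowest for *DUSP4*, at 46.0 and 58.1 CPM.

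The remaining genes of these families gave no call either. Of 11 other phosphatase, Sprouty, Spred and PEA3 genes, 5 were tested in HCT116 and 6 in NCI-H716, and edgeR called 0 in each (7.32% and 0.969% of all genes), with 1 in each line at an unadjusted p under 0.05 (23.9% and 16.8% of all genes). DESeq2 called 0 in each. *DUSP2*, a nuclear phosphatase of ERK and other MAP kinases, stood at 8.68 and 11.5 CPM in HCT116 control and at 6.10 and 1.15 CPM in treated cells, a log2 fold change of -1.31 ± 0.57 (edgeR adjusted p = 0.194). The lowest value came from 4 counts in the shallow library, and with treated replicate 1 left out the estimate was -3.14 with an edgeR adjusted p of 7.5e-05. Without the shallow library instead it was -0.70 (edgeR adjusted p = 0.267), and after thinning all libraries to the shallowest it was -0.81. *ETV1*, the third PEA3 factor, stood at 11.4 and 6.98 CPM in HCT116 control and 4.85 and 5.16 CPM in treated cells. In NCI-H716, on that line's own CPM scale, it stood at 127 and 160 CPM in control and 171 and 236 CPM in treated cells. These were log2 fold changes of -0.88 ± 0.41 and 0.50 ± 0.20, and the difference between the lines, 1.38 ± 0.37, had an edgeR adjusted p of 0.144. Without NCI-H716 treated replicate 1 *ETV1* passed in that line (0.73, edgeR adjusted p = 0.00719). With each library left out in turn its estimate ran from 0.26 to 0.73 in NCI-H716, lowest without treated replicate 2, and from -1.19 to -0.49 in HCT116, nearest 0 without control replicate 1. *DUSP1*, an early phosphatase induced by stress as well as by ERK, had log2 fold changes of 0.44 ± 0.31 in HCT116 and -0.53 ± 0.26 in NCI-H716, and its difference had an edgeR adjusted p of 0.311.

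Upstream, the receptors, adaptors, RAS, RAF, MEK and ERK genes and their direct substrates were also without a call in edgeR, 0 of 14 tested in HCT116 and 0 of 32 in NCI-H716. At an unadjusted p under 0.05 there were 0 of 14 in HCT116 (23.9% of all genes) and 7 of 32 in NCI-H716, 5 higher and 2 lower (16.8% of all genes, 7.92% higher and 8.9% lower). In HCT116 11 of the 14 estimates were below 0, as were 3361 of all 6491 genes tested, and the median log2 fold change was -0.25. In NCI-H716 the median was 0.10. In NCI-H716, *ARAF*, which encodes a RAF kinase, stood at 22.9 and 14.0 CPM in control and 8.55 and 7.24 CPM in treated cells, a log2 fold change of -1.23 ± 0.28 (edgeR adjusted p = 0.0624). DESeq2 gave it an adjusted p of 0.0239, and over 14 alternatives the adjusted p ran from 1.5e-05 to 0.763 and was under 0.05 in 6, among them edgeR without control replicate 2 (0.0236) and without treated replicate 1 (0.00188). Its estimate was -0.82 without control replicate 1 and -0.53 in limma on log2(FPKM + 1). *SOS2*, a RAS exchange factor, and *ELK4*, an ETS factor that ERK phosphorylates, had log2 fold changes of 0.94 ± 0.27 and 0.81 ± 0.23 (edgeR adjusted p = 0.121 and 0.116), and without treated replicate 1 the list had 3 calls, *SOS2* with them (0.00121). Without treated replicate 2 the estimate for *SOS2* was 0.59. In HCT116 the smallest p-values were those of the receptors *FGFR4* (-1.02 ± 0.46), *FGFR1* (-0.68 ± 0.34) and *MET* (-0.30 ± 0.15), each with both treated libraries below both controls and an edgeR adjusted p from 0.216 to 0.260. Without treated replicate 2, the shallow library, 3 genes of the list were called, *FGFR4* (-1.37, edgeR adjusted p = 0.0397) and *FGFR1* (-0.98, 0.0490) among them. Without treated replicate 1 the estimates were -0.62 for *FGFR4*, -0.38 for *FGFR1* and -0.15 for *MET* (edgeR adjusted p from 0.461 to 0.654).

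In HCT116, other transcripts that ERK signalling is known to raise gave calls where the feedback genes gave none. Of the 9 tested there, edgeR called 3, all higher, where it called 3.51% of all genes higher. The list was chosen with earlier results of these data known, so this share is a description and no test of the list. *UPP1*, which encodes uridine phosphorylase, stood at 53.4 and 74.4 CPM in control and 244 and 239 CPM in treated cells and rose by a log2 fold change of 1.92 ± 0.18 (edgeR adjusted p = 0.000581). *AREG*, an EGF receptor ligand, stood at 195 and 194 CPM in control and 372 and 371 CPM in treated cells and rose by 0.94 ± 0.13 (edgeR adjusted p = 0.00338). *EGR1*, an immediate early transcription factor, stood at 24.4 and 15.0 CPM in control and 49.3 and 39.0 CPM in treated cells and rose by 1.17 ± 0.30 (edgeR adjusted p = 0.0425). The *UPP1* call held with each library left out. *AREG* lost its call without control replicate 1 (adjusted p = 0.0775) or control replicate 2 (0.104) and *EGR1* likewise (0.139 and 0.410), which left 1 call of the list in each case, and without treated replicate 2 there were 5, 4 higher and 1 lower. The fit of all 8 libraries called 4, 3 higher and 1 lower. *EGR1* also lost its call in edgeR with scaling by library size alone (adjusted p = 0.0646), without robust estimation (0.0583) and in limma (0.0933 to 0.124). *EPHA4*, named after its values were seen, had the lowest estimate of the list, -2.55 ± 1.04, from 53, 25, 2 and 4 counts (edgeR adjusted p = 0.172).

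In NCI-H716 edgeR called 0 of the 14 such transcripts tested (0.969% of all genes), and 5 had an unadjusted p under 0.05 (16.8% of all genes), 1 higher and 4 lower (7.92% and 8.9% of all genes). DESeq2 also called 0. *FOS*, an AP-1 subunit, stood at 18.5 and 10.7 CPM in control and 7.18 and 5.68 CPM in treated cells, a log2 fold change of -1.19 ± 0.31 (edgeR adjusted p = 0.0902). *FOSB*, its close relative, and *CCND1*, the G1 cyclin D1, had log2 fold changes of -1.68 ± 0.55 and -0.58 ± 0.19 (edgeR adjusted p = 0.168 and 0.159). *CCND1* shares 497 exon bases (10.4%) with *LTO1* on the opposite strand, so its level is uncertain. In limma on log2(FPKM + 1) the estimates were -0.58 for *FOSB* and -0.23 for *CCND1*, and without control replicate 1 those in edgeR were -0.36 for *CCND1* and -0.73 for *FOS*. *FOS* passed in edgeR without control replicate 2 (adjusted p = 0.0353), the only call of the list then, and without treated replicate 1 there were 4 calls, *FOS* (0.00354) and *CCND1* (0.0193) among them. The 1 transcript higher at an unadjusted p under 0.05 was *MYC*, at 76.8 and 97.3 CPM in control and 97.9 and 159 CPM in treated cells. Its log2 fold change was 0.57 ± 0.23 (edgeR adjusted p = 0.256). *AREG* was listed at 0 in all 4 NCI-H716 libraries, and *UPP1* stood at 15.0 and 13.7 CPM in control and 14.4 and 13.6 CPM in treated cells. *EGR1* stood at 12.1 and 9.12 CPM in control and 12.4 and 16.3 CPM in treated cells. Its log2 fold change in NCI-H716 was 0.44 ± 0.27 (edgeR adjusted p = 0.428). The medians of the list were 0.41 in HCT116 and -0.11 in NCI-H716.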

How the data were processed

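RNA-seq was made from about 100 cells per reaction with full-length cDNA amplification and a tagmentation kit that does not mark strand. Per the study's methods, reads were trimmed with TrimGalore, aligned to GRCh38 with STAR and quantified with RSEM, while the submitters' processing notes list Bowtie2 2.5.0, featureCounts and hg38 without their roles. For NCI-H716 the authors deposited RSEM expected counts, TPM and FPKM per library. For HCT116 the authors deposited raw counts with gene lengths in the layout of featureCounts. Of the 28047 lines of that table as used here, 4 broken ones were left out. Positions and shared exons are from GENCODE v44.

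Expected counts were rounded. Each line was fitted alone in edgeR 4.0.16 (TMM, filterByExpr, robust quasi-likelihood test, replicate number not used), with Benjamini-Hochberg adjustment over all genes tested. CPM values are TMM-normalized within each line, with the mean and SD of 2 libraries. They are on different scales in the lines. HCT116 FPKM were computed here from counts, lengths and listed totals, so values on the FPKM scale were not compared between lines. Levels across lines were planned as TPM, but lengths differed between the tools (for *SPRY1*, 3963 against 900 to 967 bases), so CPM over shared genes were used. Shallow libraries widen the error, as in HCT116 treated replicate 2.

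The members and lists were chosen with earlier results of these data known. Genes named are all members and, from each list, those with an adjusted p under 0.05 and up to 3 per line with the smallest p. This limit was lower than planned. *SPRY3*, *EPHA4* and *MYC* were named outside this rule, with their values known. Alternatives were DESeq2 1.42.0, other filters and scalings, limma 3.58.1 on log2(FPKM + 1) or log2(FPKM + 0.1), a replicate block, thinning, all 8 libraries together and leaving out each library. The steps were tested on simulated data. R 4.3.3, pandas 2.3.3 and matplotlib 3.10.9 were used.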

Additional observations from a re-analysis of the deposited data

Results flagged for a closer look

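*UPP1*, uridine phosphorylase, stood out because its response to Z325 differed between the lines in the test of the interaction. The log2 fold change in NCI-H716 minus that in HCT116 was -1.97 ± 0.28 (SE, edgeR adjusted p = 0.0175), from 1.92 in HCT116 and -0.04 in NCI-H716. In HCT116 both treated libraries were above both controls, and in NCI-H716 the groups overlapped. Without NCI-H716 control replicate 1 the difference was -1.85 with an edgeR adjusted p of 0.0883. The lines were counted by different tools, and the part of the tools in the difference was not tested.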

How the results depend on the processing

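Over 54 results and 795 combinations of result and alternative, 683 kept their direction and their side of the threshold or stayed within the allowed range. No alternative called a member in HCT116 or in the difference between lines. In NCI-H716 the replicate block alone called members, 2 of them, *DUSP5* (adjusted p = 0.0278) and *SPRY2* (0.0271). Same-numbered libraries deviated together with a correlation of 0.29 in NCI-H716 and -0.02 in HCT116, and with 2 pairs a line nothing says that the numbers pair the samples. The block also raised all calls in NCI-H716 from 137 to 2401, with 1 other family gene, 7 cascade genes and 5 ERK-responsive genes, and those between lines from 21 to 50. Calls over all genes in HCT116 (475) were 759 with DESeq2 and 93, 92 and 167 with limma on log2(FPKM + 1), on log2(FPKM + 0.1) and at a mean FPKM of at least 1. In NCI-H716 they were 364 with DESeq2, 705 with no filter, 7, 8 and 10 with limma in the same order, 71 without robust estimation, which was added after seeing the data, and 30 with all 8 libraries in 1 fit, which covers shared genes only. Between lines they were 132 with DESeq2, 43 at 10 counts or more, 97 with no filter, 33 after thinning and 5 without robust estimation. Cascade genes called in NCI-H716 were 1 with DESeq2, 1 with scaling by library size and 3 with no filter, and ERK-responsive genes 1 with no filter. Between lines, DESeq2 and no filter each called 1 other family gene and 2 ERK-responsive genes (1 as reported).

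Signs turned for estimates near 0. *SPRY4* in HCT116 was 0.022 with DESeq2, 0.026 after thinning, 0.0077 with all 8 libraries and -0.10 to 0.068 with a library left out. *DUSP6* in NCI-H716 was -0.15 with limma at either pseudocount (-0.150 and -0.155) and at the FPKM minimum, and -0.11 to 0.30 with a library left out. With no filter the differences between lines were 0.056 for *DUSP4* and 0.074 for *SPRED2*, and with a library left out they ran from -0.13 to 0.044 and from -0.12 to 0.10. Leaving out a library gave -0.25 to 0.013 for *SPRED2* and -0.43 to 0.095 for *DUSP14* in NCI-H716. All calls then ran from 24 (without HCT116 control replicate 2) to 1076 (without treated replicate 2) in HCT116, from 43 (without control replicate 1) to 1398 (without treated replicate 1) in NCI-H716, and from 4 (without NCI-H716 control replicate 1) to 68 (without HCT116 treated replicate 2) between lines. Calls of members were 0 in each such fit. Other family genes ran from 0 to 1 in each line and between lines, cascade genes from 0 to 3 in each line, and ERK-responsive genes from 1 to 5 in HCT116, 0 to 4 in NCI-H716 and 0 to 2 between lines. An arm left with 1 library was assumed to vary like the others. The causes of these shifts were not tested. With 2 libraries per group and 13 to 111 counts for *SPRY1* in HCT116, changes of the size seen here were within the error for most members.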
